A study of Danio rerio with 2 samples.

Results

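The cells described here express the homeobox genes *eve1* and *cdx4*, which mark the ventral and lateral margin of the zebrafish gastrula, outside the cells that have switched on the paraxial mesoderm genes. They were chosen by their own counts. A barcode was taken as a member if it held at least 1 unique molecular identifier (UMI, 1 counted transcript molecule) of *eve1* and at least 1 of *cdx4*, fewer than 2 summed UMIs of *msgn1*, *mespaa* and *mespab*, and fewer than 10 summed UMIs of the keratin genes *krt4*, *krt5*, *cyt1* and *cyt1l*. The rule was met by 744 of 8862 wild-type barcodes and by 687 of 7911 *MZwnt11f2/slb* barcodes, 1431 of 16773 in all. The levels of these 9 genes are therefore a property of the choice and are given only as a description.

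Both libraries came from whole shield-stage embryos (tissue dissociated and fixed in acetic acid and methanol, sorted on DAPI, Chromium 3′ v3.1), 1 of wild type (strain A2B2) and 1 of *MZwnt11f2/slb*, the maternal-zygotic mutant of the non-canonical Wnt ligand *wnt11f2* (allele tx226, genotype label MZwnt11/slb). How many embryos went into a library was not stated in the sources read. Since each genotype has a single library, variation between embryos could not be measured and no test was possible, so every interval below is a 95% interval of counting error only. UMIs were summed over the barcodes of a group and scaled to the group's total (counts per 1000000 UMIs, CPM), and differences are log2 ratios of CPM, taken only within a gene.

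At the shield stage the margin of the blastoderm is the ring in which mesoderm and endoderm form under Nodal and FGF signals. BMP ligands act on its ventral side, where the homeobox repressors Vox, Vent and Ved keep dorsal genes off, while BMP antagonists such as Chordin come from the dorsal organizer. Wnt8 from the margin and the T-box factors Tbxta (Brachyury) and Tbx16 maintain the posterior progenitors from which tail and trunk mesoderm are drawn, and cdx genes act downstream of these signals.

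Members had a median depth of 4237.5 UMIs (wild type) and 4937 UMIs (*MZwnt11f2/slb*), against 3841 and 4564.5 in the other barcodes. A barcode needs depth to show both genes, so the share was also taken after thinning each barcode to 2944 UMIs, at the cost of the shallower 2215 barcodes of wild type and 1055 of *MZwnt11f2/slb*. Members made up 8.40% (7.83 to 8.99, exact binomial) of wild-type and 8.68% (8.07 to 9.33) of *MZwnt11f2/slb* barcodes before thinning, and 6.75% (6.16 to 7.38) and 6.37% (5.81 to 6.98) after it. At each depth the intervals of the 2 libraries overlapped. Free RNA gives UMIs in cells that do not express a gene, and enveloping layer barcodes, the surface epithelium with at least 10 keratin UMIs, served as the background. The same *eve1*, *cdx4* and mesoderm criterion was met by 2.57% of 894 wild-type and 4.52% of 885 *MZwnt11f2/slb* enveloping layer barcodes (medians 5258 and 5619 UMIs), and after thinning by 0.955% and 1.57% (medians 5329.5 and 5832.5 UMIs before thinning). Of the barcode sequences, 16 were found in both libraries, and 2 of them were members in each library. No doublet caller was run here and no doublets were removed.

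Many members were at the lower limit of the rule. A single *eve1* UMI was found in 40.9% of wild-type and 39.9% of *MZwnt11f2/slb* members, the median was 2 in both, and the highest counts were 9 and 10. For *cdx4* the share with a single UMI was 40.3% and 36.5%, again with a median of 2, and 151 and 132 members held exactly 1 UMI of each gene. *tbxta*, which the rule did not use, had a median of 4 UMIs per member in both libraries and was at 0 in 119 wild-type and 115 *MZwnt11f2/slb* members. *ved* was at 0 in 19 and 21 members, with a median of 6 UMIs in both libraries.

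**Figure D1:**
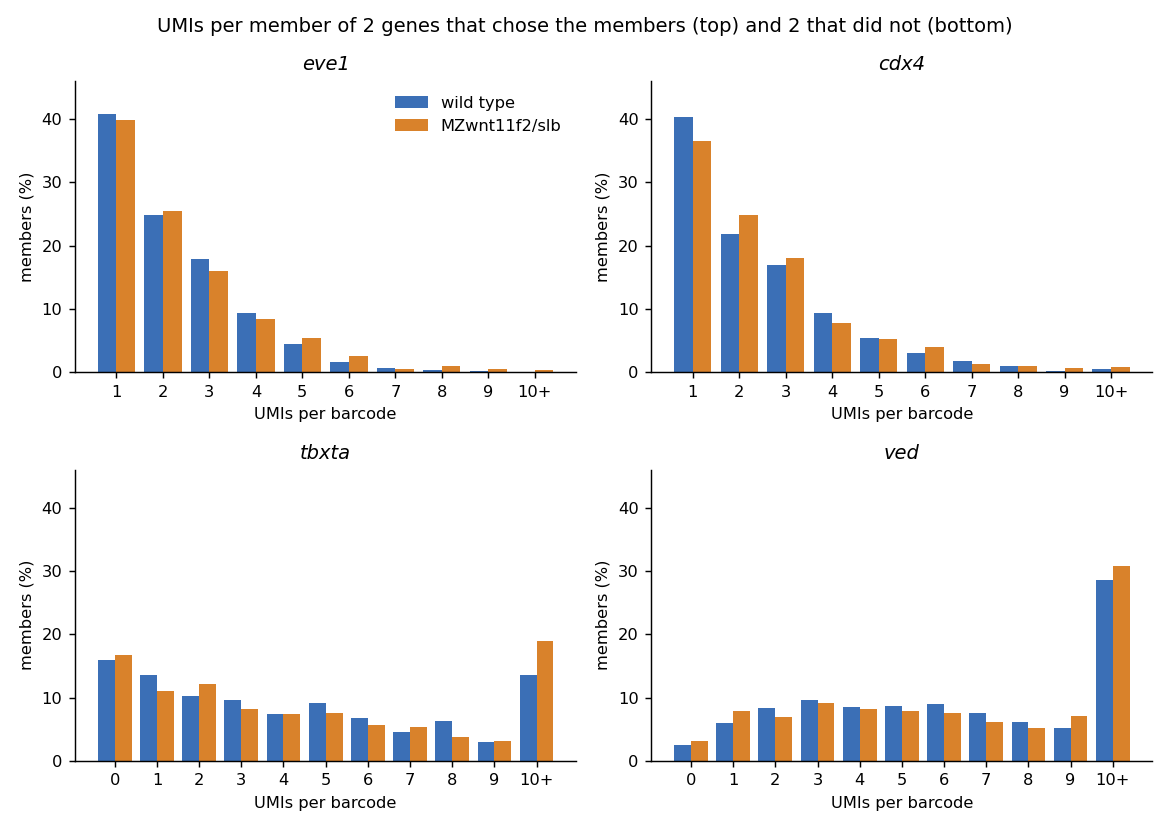
Share of members (y axis, %) by the number of UMIs per barcode (x axis) for *eve1* and *cdx4*, which chose the members, and for *tbxta* and *ved*, which did not, in wild type (blue) and *MZwnt11f2/slb* (orange). *eve1* and *cdx4* were concentrated at 1 UMI (40.9% and 40.3% of wild-type members), whereas *tbxta* spread from 0 to 26 UMIs in wild type and 0 to 33 in *MZwnt11f2/slb*.

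At the mesoderm limit of the rule, 119 wild-type and 108 *MZwnt11f2/slb* members held 1 UMI of *msgn1*, *mespaa* or *mespab*, and 41 and 46 barcodes with *eve1* and *cdx4* were left outside with exactly 2. In wild type the *tbxta* level was 876 CPM in members with 0 such UMIs, 1496 CPM in those with 1, and 1673 CPM just outside. The *mixl1* level followed the same order in wild type, with 40.6, 139 and 203 CPM, and in *MZwnt11f2/slb* with 56.2, 239 and 372 CPM. The members therefore continued into the barcodes that the rule left out, with no gap at the limit. The keratin limit touched few barcodes, with 2 and 4 members at 8 or 9 keratin UMIs and 2 and 1 barcodes outside at 10 or 11.

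The name of the cells was checked on 7 margin and ventral markers that the rule did not use (*tbxta*, *tbx16*, *wnt8a*, *ved*, *vent*, *vox* and *bmp4*). All 7 were higher in members than in all other barcodes in both libraries, and their summed level was 6408 against 3205 CPM in wild type and 5122 against 2472 CPM in *MZwnt11f2/slb*. Per barcode the sum lay between 30.4 (5th percentile) and 109 (95th percentile) UMIs per 10000 in wild-type members, with a median of 64.4. The sum pools margin and ventral markers, so it does not show that each member was a margin cell. *tbxta* was at 0 UMIs in 119 wild-type and 115 *MZwnt11f2/slb* members. Markers of other regions were low. The 7 dorsal and axial markers summed to 72.7 against 248 CPM in wild type and to 142 against 527 CPM in *MZwnt11f2/slb*, the 4 endoderm markers to 17.7 against 149 and 30.9 against 190 CPM, and the 4 yolk syncytial layer markers to 4.34 against 22.5 and 3.52 against 10.7 CPM. The 8 enveloping layer markers, some of which the rule used, stood at 177 against 8350 CPM and 149 against 7449 CPM. The paraxial marker *tbx6* was at 0 UMIs in the members of both libraries, with 21 and 11 UMIs in the other barcodes, too few to show a difference.

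Neural and germ cell markers were closer to their level elsewhere. The 6 neural ectoderm markers summed to 1311 CPM in members against 1452 CPM in the other wild-type barcodes, and to 1083 against 1295 CPM in *MZwnt11f2/slb*. The 4 germ cell markers were at 310 against 285 CPM and 343 against 340 CPM. The 4 markers of the p53 response, all 4 higher in members, were at 265 against 224 CPM in wild type and 226 against 149 CPM in *MZwnt11f2/slb*, and their part in the results below was not tested.

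Members differed from the other barcodes by a short list of higher genes and a long list of lower ones. Of 9233 genes with at least 100 UMIs in each library, 30 (0.325%) were at least 2-fold higher in members in both libraries and 512 (5.55%) were at least 2-fold lower in both. Without the enveloping layer among the other barcodes, 25 genes were higher and 114 lower, so that the higher genes made up 18% of these calls instead of 5.54%. The median over all tested genes was 0.05 in both libraries.

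The 3 highest genes encode transcriptional regulators. *msx1b* (ENSDARG00000008886), a homeobox gene known as a target of BMP and Wnt signals, led the list. It stood at 69.5 CPM in wild-type members against 9.52 CPM in the other barcodes, a log2 ratio of 2.87 (2.62 to 3.11), and in *MZwnt11f2/slb* at 50.3 against 6.85 CPM, a log2 ratio of 2.88 (2.60 to 3.16). The homeobox gene *gbx1* (ENSDARG00000071418) had 59.1 against 10.8 CPM in wild type and 46 against 8.92 CPM in *MZwnt11f2/slb*. The next gene, *znf703* (ENSDARG00000035563), a zinc-finger repressor, had 97.0 against 18.9 CPM and 85.8 against 18.6 CPM. For these 3 genes the log2 ratio was between 2.20 and 2.88 in every library. *msx3*, *lmo4a* and *insm1b*, also transcriptional regulators, stood lower on the list than the Delta ligand *dld*, which is described below. Their log2 ratios were 1.50, 1.89 and 1.65 in wild type and 1.98, 1.74 and 1.90 in *MZwnt11f2/slb*. The posterior gene *cdx1a*, a close relative of *cdx4* that had under 100 UMIs in *MZwnt11f2/slb*, was at 14.2 against 2.24 CPM and 9.47 against 1.16 CPM.

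**Figure D2:**
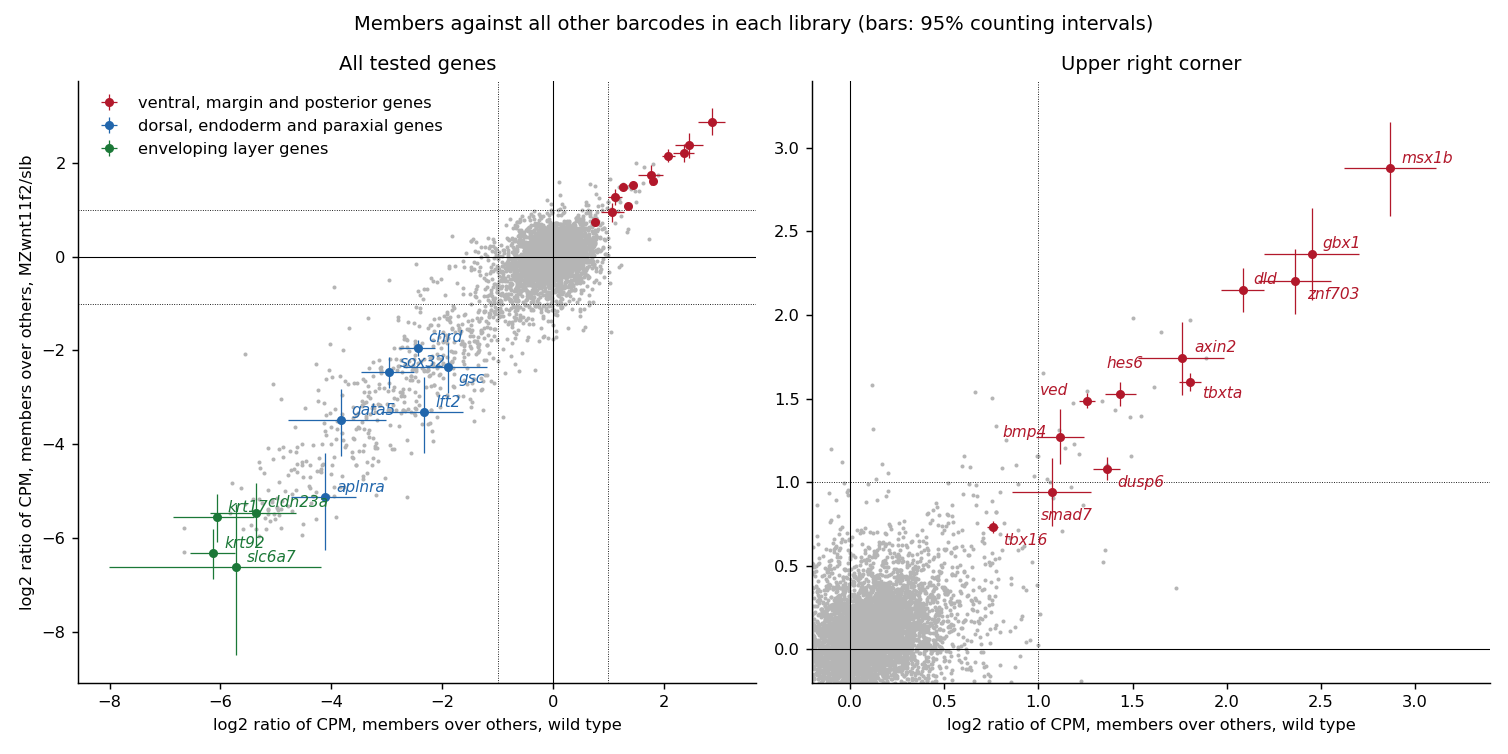
Log2 ratio of CPM in members over all other barcodes, in wild type (x axis) and *MZwnt11f2/slb* (y axis). Grey points are the 9233 tested genes without the mitochondrial ones, and coloured points are named genes with 95% counting intervals as bars. The upper right corner is enlarged on the right. *msx1b* lies at 2.87 and 2.88 and *ved* at 1.26 and 1.49, while *krt92* of the enveloping layer lies at -6.13 and -6.32; dotted lines mark a 2-fold difference.

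Mesoderm genes of the margin were not all higher in members. *tbxta* (ENSDARG00000101576) was at 978 CPM in wild-type members and 985 CPM in *MZwnt11f2/slb* members, with log2 ratios over the other barcodes of 1.80 (1.75 to 1.86) and 1.60 (1.55 to 1.65). *tbx16* (ENSDARG00000007329) was higher by less, 2923 against 1730 CPM in wild type and 1932 against 1161 CPM in *MZwnt11f2/slb*. *sebox* (ENSDARG00000042526), a homeobox gene induced by Nodal, had log2 ratios of 1.11 and 1.31. The related Nodal-induced gene *mixl1* lay on the other side, at -0.57 and -0.63, but at 1.64 and 1.02 with no mesoderm limit. Of the 8 tested genes of the T-box list, 2 (*tbxta* and *sebox*) were at least 2-fold higher in both libraries, and 2 (*osr1* and *lhx1a*) at least 2-fold lower. Over all 9192 tested gene symbols outside the rule, 30 were at least 2-fold higher in both and 508 at least 2-fold lower. With no mesoderm limit *osr1* stood at 1.70 and 0.89, and *lhx1a* at 0.76 and -0.15. Only 3 paraxial mesoderm genes outside the rule were tested, *foxc1a*, *pcdh8* and *ripply1*. All 3 were at least 2-fold lower, which is tied to the mesoderm limit of the rule.

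*dld* was among the highest genes, while the Delta and Notch list differed among its members. *dld* (ENSDARG00000020219), a Delta ligand, had 263 CPM in wild-type and 188 CPM in *MZwnt11f2/slb* members, against 62.0 and 42.3 CPM in the other barcodes, log2 ratios of 2.08 (1.97 to 2.20) and 2.15 (2.02 to 2.28). The bHLH repressor *hes6* had log2 ratios of 1.44 and 1.53, and *her7*, a gene of the segmentation clock, of 1.49 and 1.15. Its partner *her1* was at 0.97 and 1.04. The Notch feedback gene *nrarpa* had 269 against 96.0 CPM and 234 against 89.5 CPM. Of 13 tested genes of this list, 3 (*dld*, *hes6* and *her7*) were at least 2-fold higher in both libraries and 2 (*her3* and *her6*) at least 2-fold lower. The shares over all tested gene symbols outside the rule were 30 of 9192 higher and 508 lower. The receptors *notch1a* and *notch3* were close to their level elsewhere, with log2 ratios between 0.09 and 0.47.

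Of 14 tested BMP pathway genes, 3 were at least 2-fold higher in members in both libraries, against 30 of 9192 over all tested gene symbols. Above a ratio of 1 in both were 10 of the 14, against 4108 of 9192 over all tested gene symbols outside the rule, and 3 were below it in both, with medians of 0.76 in wild type and 0.64 in *MZwnt11f2/slb* against 0.05 over all genes. The protease gene *tll1* was the 1 at least 2-fold lower in both, and it stood at 0.51 and 1.83 when enveloping layer barcodes were left out of the comparison. *chrd*, at -2.44 and -1.94, was counted with the organizer genes and not on this list. The 3 at least 2-fold higher in both were the ligand *bmp4*, the repressor *ved* and *szl*, a secreted inhibitor of the proteases that cleave Chordin. *bmp4* (ENSDARG00000019995) had 182 against 84.2 CPM in wild type and 103 against 42.5 CPM in *MZwnt11f2/slb*. *ved* (ENSDARG00000102389) had 1554 against 650 CPM and 1383 against 494 CPM, log2 ratios of 1.26 (1.22 to 1.30) and 1.49 (1.44 to 1.53). Its relatives *vent* and *vox* had smaller ratios, between 0.67 and 0.82. Feedback inhibitors of BMP signalling were also higher: *bambia*, a truncated receptor, by 0.88 and 1.1, and *smad7* by 1.07 and 0.94. The ligand *bmp2b* was not, at -0.03 and -0.18.

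FGF genes differed among themselves. The inhibitors of FGF and ERK signalling *spry2*, *spry4* and *dusp6* were the 3 of 15 tested genes at least 2-fold higher in both libraries. Of all tested gene symbols outside the rule, 30 of 9192 were higher by as much. *dusp6* was at 557 against 217 CPM in wild type and 571 against 270 CPM in *MZwnt11f2/slb*. The ETS factors *etv4*, *etv5a* and *etv5b*, also targets of the pathway, were higher by 0.31 to 0.63. Of the ligands, *fgf8a* was lower in members, at -1.50 and -0.79, and *fgf3*, with 3 UMIs in the members of each library, was at -2.47 (-4.76 to -0.89) and -2.40 (-4.70 to -0.83). With no mesoderm limit *fgf3* stood at 0.68 and 0.23 and *fgf8a* at -0.13 and 0.03, and without enveloping layer barcodes *fgf8a* stood at -0.38 and -0.09. *fgf24* was higher, at 0.72 and 0.82.

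Among Wnt genes, the canonical target *axin2* (ENSDARG00000100149) stood out, with 62.3 against 18.4 CPM in wild type and 63.6 against 19.0 CPM in *MZwnt11f2/slb*. The receptor *fzd10* was the other gene of 18 tested that was at least 2-fold higher in both, at 1.62 and 1.57. Of all 9192 tested gene symbols outside the rule, 30 were at least 2-fold higher in both and 508 at least 2-fold lower. Targets such as *sp5l* (0.60 and 0.47) and *lef1* (0.78 and 0.82) were higher by less. The ligand *wnt8a*, whose symbol is carried by more than 1 identifier and was summed over them, was at 0.79 and 0.53. The receptors *fzd7a* and *fzd8a* and the secreted modulators *dkk1b* and *rspo3* were at least 2-fold lower, *dkk1b* with -3.16 and -3.14 and *rspo3* with 1 and 2 UMIs in the members. Without enveloping layer barcodes *rspo3* stood at -0.48 and -0.69, and with no mesoderm limit *dkk1b* stood at 0.18 and -0.99. Of 17 tested genes of planar cell polarity, the pathway in which *wnt11f2* acts, *prickle1b* was the 1 at least 2-fold higher in both (1.22 and 1.17). *fzd7a* was the 1 lower, which is near the share of lower genes over all tested gene symbols. *vangl2*, with 403 and 398 CPM in members, was at 0.02 and 0.10.

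Genes of the dorsal side, the endoderm and migrating mesoderm were low. All 11 tested organizer and axial genes were below a ratio of 1 in both libraries, against 2224 of 9192 over all tested genes, 7 of them at least 2-fold, with *chrd*, which encodes Chordin, at 23.2 against 126 CPM in wild type and 74.4 against 286 CPM in *MZwnt11f2/slb*. All 10 tested Nodal and endoderm genes were below it as well, 8 of them at least 2-fold, among them *sox32* (-2.97 and -2.46), *gata5* (-3.82 and -3.48) and the Nodal inhibitor *lft2* (-2.32 and -3.31). By comparison, 508 of all 9192 tested gene symbols were at least 2-fold lower in both libraries. The apelin receptor genes *aplnra* and *aplnrb*, which act in internalizing mesoderm, were also low, *aplnra* at -4.11 and -5.12 and *aplnrb* at -1.49 and -1.95. The cell adhesion gene *cdh1* was at -0.69 and -0.49, or at -0.01 and 0.14 without enveloping layer barcodes, and *snai1a*, a repressor of *cdh1*, at -1.07 and -0.99. Part of this rests on the mesoderm limit. When barcodes with *msgn1*, *mespaa* and *mespab* UMIs were kept among the members, *aplnrb* stood at 0.89 and 0.39 and *snai1a* at 0.67 and 0.19, while *gata5* stood at 0.78 in wild type and -0.44 in *MZwnt11f2/slb*.

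Non-neural ectoderm genes differed among themselves. *tfap2a* and *gata3* were at least 2-fold lower in members in both libraries, while *foxi1* was at -0.48 and -0.39 and *tfap2c* at 0.05 and 0.40. Without enveloping layer barcodes *gata3* stood at -1.03 and -0.24. The neural gene *sox3* was near its level elsewhere, at 754 against 780 CPM in wild type and 512 against 605 CPM in *MZwnt11f2/slb*, and *sox2* was at -0.33 and -0.26. Genes of S phase were slightly above a ratio of 1 in 14 of 15 cases in both libraries, against 4108 of 9192 over all tested genes, with medians of 0.21 and 0.16, and in 11 under median-of-ratios scaling, and none was 2-fold different. The lowest genes of all belonged to the enveloping layer, such as *krt92* (-6.13 and -6.32) and *krt17* (-6.07 and -5.55), which is tied to the keratin limit of the rule.

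The members were next set beside the barcodes most like them. These were barcodes under the same mesoderm and keratin limits with a UMI of *eve1* only (560 in wild type and 534 in *MZwnt11f2/slb*), of *cdx4* only (570 and 390) or of neither (4902 and 4185), and the barcodes with both genes but with at least 2 UMIs of *msgn1*, *mespaa* and *mespab* (353 and 289), called paraxial here. For many margin genes the single-gene groups lay between the members and the group with neither. *msx1b* was at 69.5 CPM in wild-type members, 28.6 and 30.7 CPM in the groups with *eve1* only and *cdx4* only, and 5.46 CPM with neither. The single-gene groups also lay between the others in *MZwnt11f2/slb*, with 50.3, 24.0, 17.7 and 3.84 CPM in the same 4 groups. *dld* was closer to the members in the group with *cdx4* only (149 CPM in wild type) than with *eve1* only (75.5 CPM). With 40.9% of wild-type members at a single *eve1* UMI, the line between members and single-gene groups depends on depth.

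Against the paraxial group, in which the log2 ratio of members lay between -0.12 and 0.22 for *eve1* and *cdx4*, the members separated into genes that were higher and genes that were lower. Genes of nascent mesoderm were lower in members, which is tied to the mesoderm limit that separates these groups. In wild type *mixl1* was at 56.8 against 480 CPM (log2 ratio -3.08, -3.31 to -2.85) and in *MZwnt11f2/slb* at 86.6 against 526 CPM (-2.60, -2.79 to -2.42). The protocadherin gene *pcdh8*, at -3.30 and -3.21, and *aldh1a2*, which encodes the enzyme that makes retinoic acid, at -2.89 and -2.69, differed as much. *snai1a* was at -2.77 and -2.14, *wnt8a* at -1.94 and -1.81, and *her1* at -1.54 and -1.41. *tbxta* itself was at 978 against 1661 CPM in wild type and 985 against 1753 CPM in *MZwnt11f2/slb*. Some other genes that were higher in members than in all other barcodes were also lower than in the paraxial group. These were *sebox* (-1.35 and -0.99), *fzd10* (-0.99 and -1.04), *hes6* (-0.51 and -0.24) and *her7* (-0.26 and -0.39), while *axin2* was at 0.28 and 0.25.

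The neural gene *sox3*, the homeobox genes *msx1b* and *gbx1*, and *szl* were higher in members than in the paraxial group. Of the other BMP genes, *bmp4* was at -0.04 (-0.24 to 0.16) and 0.32 (0.04 to 0.60), *ved* at 0.11 and 0.53, *vox* at -0.08 and 0.15, and *vent*, lower in members, at -0.67 and -0.57. *sox3* had 754 against 191 CPM in wild type and 512 against 205 CPM in *MZwnt11f2/slb*, *msx1b* had log2 ratios of 1.85 (1.33 to 2.43) and 1.54 (0.99 to 2.14), and *gbx1* of 0.91 and 0.72. *szl* was at 0.67 (0.47 to 0.87) in wild type and 1.81 (1.24 to 2.42) in *MZwnt11f2/slb*, the latter on 29 UMIs in the paraxial group. *dld* was slightly lower in members, at -0.54 and -0.24. For *msx1b* and *gbx1* the paraxial group was itself above all other barcodes, while for *sox3* it was below them in both libraries. *msx1b* was at 19.2 against 9.52 CPM in wild type and 17.3 against 6.85 CPM in *MZwnt11f2/slb*. *gbx1* was at 31.4 against 10.8 CPM and 27.8 against 8.92 CPM.

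**Figure D3:**
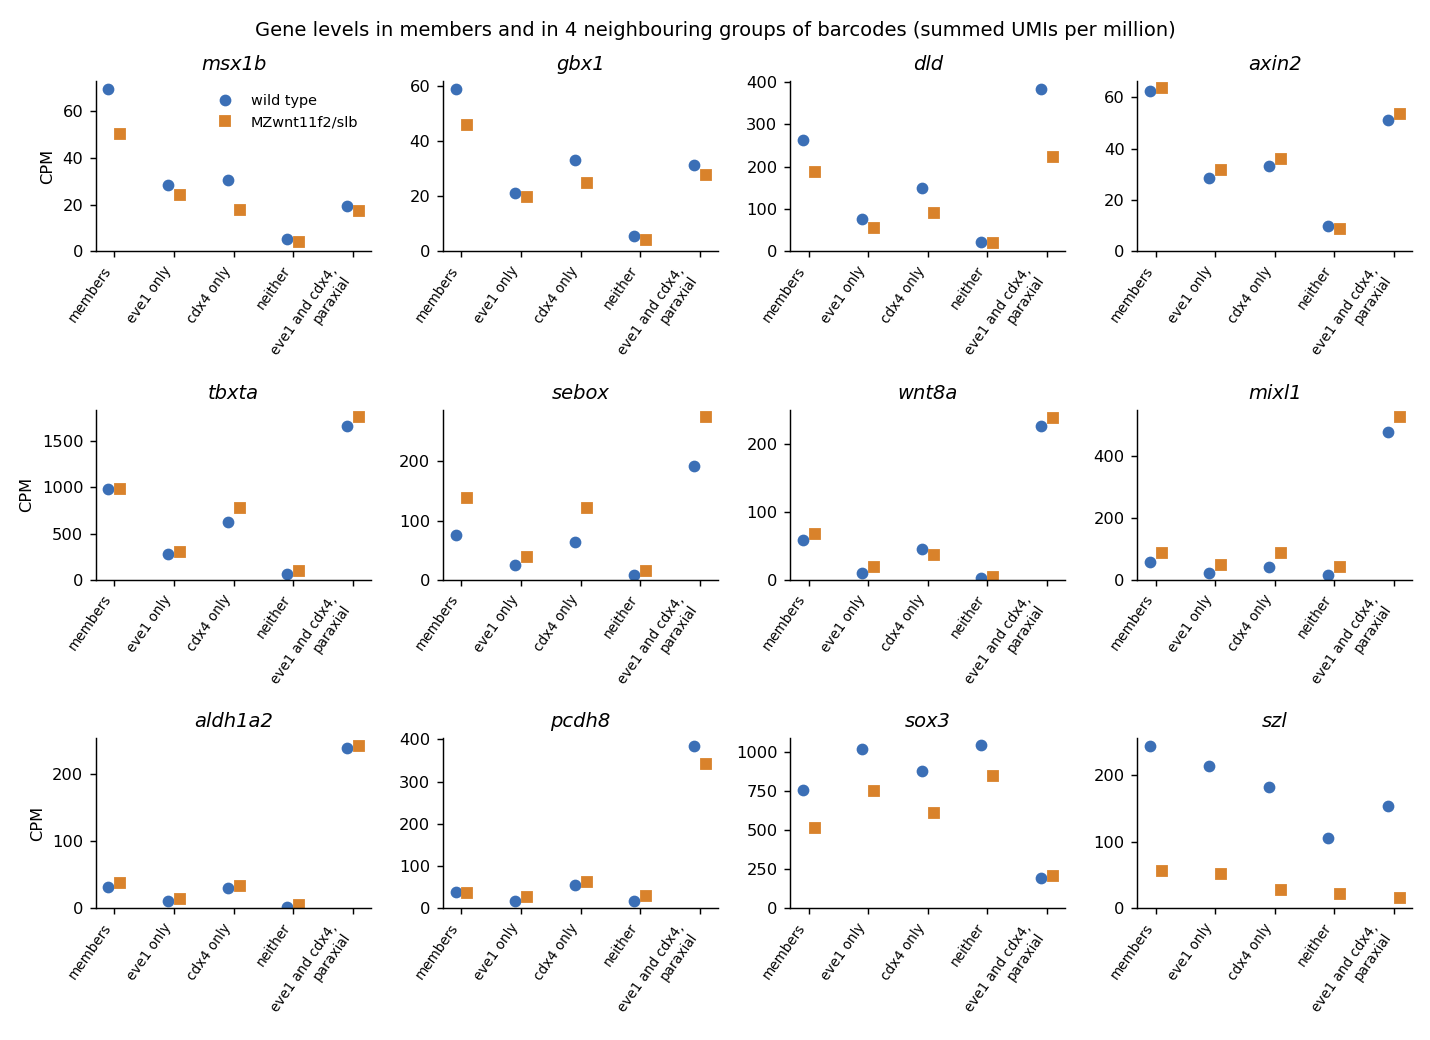
Level (y axis, CPM of summed UMIs, starting at 0) of 12 genes in members and in 4 neighbouring groups of barcodes, by whether they held UMIs of *eve1*, *cdx4*, neither, or both with at least 2 UMIs of *msgn1*, *mespaa* and *mespab* (paraxial), in wild type (blue circles) and *MZwnt11f2/slb* (orange squares). *msx1b* was highest in members (69.5 CPM in wild type), *mixl1* in the paraxial group (480 CPM) and *sox3* in the group with neither gene (1044 CPM).

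The members were not uniform. After thinning to 2944 UMIs, which kept 625 wild-type and 632 *MZwnt11f2/slb* members, 254 and 271 of them held 1 *eve1* UMI, 207 and 184 held 2 or 3, and 39 and 29 held 4 or more, and the remaining 125 and 148 had lost it. Since *eve1* chose the members, these classes are given only as a description. *sebox* was at 37.4, 95.2 and 270.0 CPM in the 3 classes from 1 to 4 or more *eve1* UMIs (wild type), and at 100.3, 157 and 316 CPM in the same classes of *MZwnt11f2/slb*. *dld* was at 238, 318 and 549 CPM in wild type, but at 177, 225 and 223 CPM in *MZwnt11f2/slb*. The members that had lost it stood at 67.9 and 142 CPM for *sebox*, above the class with 1 *eve1* UMI in both libraries, and at 196 and 190 CPM for *dld*.

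The same thinned members were divided by their *tbxta* UMIs into 0 (141 and 147 members), 1 to 3 (261 and 294) and 4 or more (223 and 191). This division was chosen after the values were seen, and since *tbxta* UMIs chose the classes, *tbxta* itself is not compared. Genes of the mesoderm were concentrated in the members with the most *tbxta*. *sebox* was at 12.0, 44.2 and 157 CPM over the 3 classes in wild type and at 16.2, 93.6 and 295 CPM in *MZwnt11f2/slb*. *mixl1* was at 16.9, 28.6 and 131 CPM in wild type and at 2.31, 54.3 and 180 CPM in *MZwnt11f2/slb*, where the lowest class held 1 UMI. *wnt8a* went from 14.5 to 117 CPM and from 4.62 to 139 CPM, and *aldh1a2* from 2.41 to 65.5 CPM and from 2.31 to 74.7 CPM, between the lowest and the highest class. *dld* differed by 2.16 (1.68 to 2.67) on the log2 scale between the highest and the lowest class in wild type and by 1.50 (1.01 to 2.01) in *MZwnt11f2/slb*.

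Genes of the ectoderm ran the other way. *sox3* was at 1050, 836 and 492 CPM over the same classes in wild type and at 783, 526 and 261 CPM in *MZwnt11f2/slb*. *foxi1*, a gene of the ventral ectoderm, was at 91.5, 54.7 and 27.4 CPM in wild type, and *gata2a* at 86.7, 44.2 and 15.2 CPM. In *MZwnt11f2/slb* the corresponding levels of *gata2a* were 78.6, 35.8 and 17.8 CPM. Of the genes named here, the members without *tbxta* thus carried the lowest mesoderm and the highest ectoderm levels of the 3 classes in both libraries, with *foxi1* at 43.9, 15 and 14.2 CPM in *MZwnt11f2/slb*. For these members the name of margin cells is the least sure.

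Genes of the BMP pathway differed among themselves. *bambia* was at 1007, 1110 and 999 CPM in wild type and 959, 943 and 932 CPM in *MZwnt11f2/slb*, and the log2 ratio of the highest over the lowest class was -0.01 (-0.19 to 0.17) and -0.04 (-0.23 to 0.15). *vox* was at -0.01 (-0.26 to 0.24) and -0.03 (-0.29 to 0.23). *bmp4* was at 0.20 (-0.23 to 0.64) and 0.52 (-0.09 to 1.14), so that a difference was not detectable at this depth. *vent* was higher in the class with the most *tbxta*, at 0.71 (0.28 to 1.15) and 0.91 (0.47 to 1.37). *ved* was at 0.43 (0.28 to 0.58) in wild type and at 0.00 (-0.15 to 0.16) in *MZwnt11f2/slb*, and *szl*, lower in that class in both libraries, at -0.45 (-0.80 to -0.10) and -1.46 (-2.35 to -0.61).

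**Figure D4:**
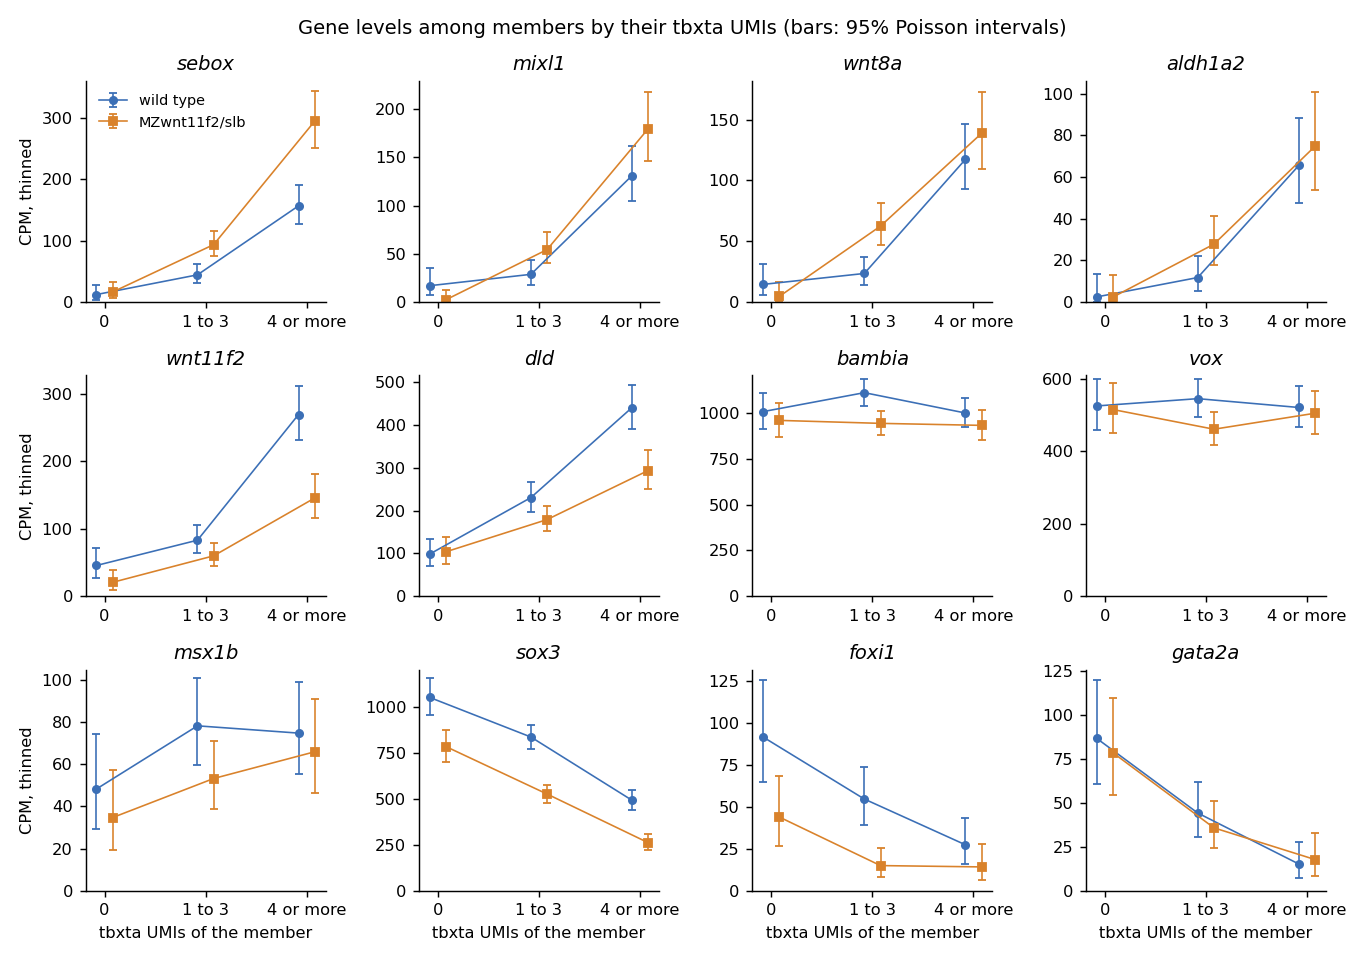
Level (y axis, CPM after thinning, starting at 0) of 12 genes in members with 0, 1 to 3, and 4 or more *tbxta* UMIs (x axis), in wild type (blue circles) and *MZwnt11f2/slb* (orange squares), with 95% Poisson intervals. From the lowest to the highest class *sebox* went from 12.0 to 157 CPM and *sox3* from 1050 to 492 CPM in wild type, while *bambia* stayed between 999 and 1110 CPM.

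The mutated gene was counted in the members of both libraries. *wnt11f2* (ENSDARG00000004256) had 507 UMIs, or 147 CPM, in wild-type members and 295 UMIs, or 79.8 CPM, in *MZwnt11f2/slb* members, a log2 ratio of *MZwnt11f2/slb* over wild type of -0.88 (-1.09 to -0.67), against -1.33 (-1.42 to -1.24) in the other barcodes. With no mesoderm limit the ratio in members was -1.26. A 3′ count does not show whether a transcript carries the mutation. Within the members *wnt11f2* was concentrated where *tbxta* was high, with 45.8, 83.3 and 270 CPM over the 3 *tbxta* classes in wild type and 20.8, 60.1 and 146 CPM in *MZwnt11f2/slb*. After thinning, a *wnt11f2* UMI was found in 27.7% of wild-type and 18% of *MZwnt11f2/slb* members, and in 28% and 16.1% of enveloping layer barcodes (838 and 830 barcodes). Barcodes with neither *eve1* nor *cdx4* were far lower, with members over them at 3.04 (2.83 to 3.24) and 3.06 (2.79 to 3.33), so the enveloping layer share is not a background for this gene.

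Between the genotypes, 5725 genes with at least 100 UMIs over the members of both libraries were compared. In *MZwnt11f2/slb* members 178 genes (3.11%) were at least 2-fold higher and 278 (4.86%) at least 2-fold lower than in wild-type members. Of these calls 39.0% were higher, or 49.2% when the profiles were scaled by median-of-ratios. Nearly all of these differences had the same sign in the other barcodes. Of the 178 higher genes all 178 were above a ratio of 1 in the other barcodes, 126 of them by at least 2-fold, and of the 278 lower genes 277 were below it, 199 by at least 2-fold. The median over all genes was -0.04 in members and -0.03 in the others.

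Some of the largest differences were in genes that mark no region on the lists used here, and the other barcodes shared them. *glula*, which encodes a glutamine synthetase, had 945 UMIs in wild-type members and 15 in *MZwnt11f2/slb* members, a log2 ratio of -6.07 (-6.92 to -5.35), against -4.81 in the other barcodes. *znf1063* had 483 and 12 UMIs. In the other direction *BX511067.1* had 0 and 571 UMIs, a log2 ratio of 7.47 with wild type set to the floor of 3 UMIs, and *higd1a* had 64 and 637 UMIs. Each genotype is a separate fish line, and genotype, line and library cannot be told apart here.

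All 12 genes of the BMP list with enough UMIs were below a ratio of 1 in *MZwnt11f2/slb* members, 1 of them by 2-fold, against 3097 of 5720 over all tested gene symbols outside the rule, with a median of -0.21, and the median of the same genes in the other barcodes was -0.19. Under median-of-ratios scaling 10 of the 12 were below it, and *smad7* stood at 0.01. The list does not hold *chrd*, the gene of a BMP antagonist, which was counted with the organizer genes and stood at 1.68 in members. *szl* (ENSDARG00000099637) had 846 UMIs in wild-type members and 209 in *MZwnt11f2/slb* members, a log2 ratio of -2.11 (-2.34 to -1.89), against -2.40 in the other barcodes. *bmp4*, with 630 and 379 UMIs, was at -0.83 (-1.02 to -0.64) and *bmp7a*, with 846 and 493 UMIs, at -0.88 (-1.04 to -0.71). The repressors *ved* and *vox* were near a ratio of 1, at -0.17 and -0.12, so that the ligands and *szl* differed more than these ventral transcription factors.

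The ventral mesoderm genes *drll.2* and *drll.3*, relatives of the zinc-finger gene draculin of the lateral plate, were lower in *MZwnt11f2/slb* members. *drll.2* had 342 UMIs in wild-type members and 34 in *MZwnt11f2/slb* members, a log2 ratio of -3.43 (-3.98 to -2.92), against -2.64 in the other barcodes, and *drll.3* had 655 and 194 UMIs, a log2 ratio of -1.85. With no mesoderm limit *drll.2* stood at -3.01 in members. *drll.1* went the other way on few counts, with 9 and 35 UMIs. *lmo2*, a gene of blood and vessel progenitors, had 11 UMIs in wild-type members and 0 in *MZwnt11f2/slb* members, and stood at 38.7 and 0.52 CPM in the other barcodes. In wild type *lmo2* stood at -3.60 in members over others, but at 0.998 without enveloping layer barcodes. Much of its level in the other wild-type barcodes thus rested on the enveloping layer.

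T-box genes differed less. *tbxta* was at 0.01 (-0.06 to 0.08) in members and at 0.21 (0.18 to 0.25) in the other barcodes. *tbx16* had 10093 UMIs in wild-type members and 7139 in *MZwnt11f2/slb* members, a log2 ratio of -0.60 (-0.64 to -0.55), and the other barcodes stood at -0.58. The Nodal-induced genes *sebox* (0.86, 0.64 to 1.08) and *mixl1* (0.61, 0.35 to 0.87) were higher in *MZwnt11f2/slb* members. *lft1*, which encodes the Nodal inhibitor Lefty1, had 41 UMIs in wild-type members and 0 in *MZwnt11f2/slb* members, and its level in the other barcodes was 35.3 and 1.07 CPM. The related *lft2* had 17 and 14 UMIs.

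Of the dorsal genes, *chrd* was at 1.68 (1.32 to 2.06) in members and 1.19 (1.14 to 1.24) in the others. After thinning *chrd* was at 1.11 in members. Members over others then stood at -3.03 (wild type) and -3.18 (*MZwnt11f2/slb*), so the genotype ratio was no longer higher in members. All 5 tested organizer genes were above a ratio of 1, against 2623 of 5720 over all tested genes. The median of these 5 genes was 0.59 in members and 0.94 in the other barcodes. The *chrd* level in *MZwnt11f2/slb* members was still under that in all other wild-type barcodes, 74.4 against 126 CPM. Ectoderm genes went both ways, with *foxi1* at -1.16 (-1.54 to -0.79) and *tfap2a* at -1.21 (-1.80 to -0.64), and with the neural gene *foxb1a* at 1.15 (0.69 to 1.62). The related genes *sox3* (-0.56) and *sox2* (0.51) differed in sign.

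Of 11 tested FGF genes, 9 were above a ratio of 1 in *MZwnt11f2/slb* members, 1 of them by 2-fold, against 2623 of 5720 over all tested genes, and the median was 0.29 against 0.32 in the other barcodes. *fgf8a* had 40 UMIs in wild-type members and 90 in *MZwnt11f2/slb* members (1.07, 0.52 to 1.65), and *spry4* 124 and 233 (0.81, 0.49 to 1.14). *dusp6* was at 0.04 (-0.05 to 0.13) in members and at 0.32 (0.27 to 0.36) elsewhere. Delta and Notch genes were split, with *dld* at -0.48 (-0.63 to -0.34), *her7* at -0.51 (-0.71 to -0.31) and *notch1a* at 0.45 (0.33 to 0.57).

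No gene of the 15 tested in the planar cell polarity list was 2-fold different between the genotypes in members. Over all 5720 tested gene symbols outside the rule, 175 were at least 2-fold higher and 272 at least 2-fold lower, so this list was near that share. On that list, which does not hold *wnt11f2*, the ratio farthest from 0 was that of *celsr1a*, at -0.74 (-1.19 to -0.30), and the core gene *vangl2* was at -0.02 (-0.13 to 0.09), or 0.05 under median-of-ratios scaling. Of the adhesion genes, *epcam* was at -0.99 (-1.08 to -0.90) and *snai2* at -1.20 (-1.48 to -0.92), while *cdh1* was at 0.08 (-0.05 to 0.21). The chemokine receptor *cxcr4a*, a guidance receptor of mesendoderm, was counted 696 times in wild-type and 1495 times in *MZwnt11f2/slb* members (1.01, 0.87 to 1.14). Its ratio in the other barcodes was 0.87, so that this difference too was shared.

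**Figure D5:**
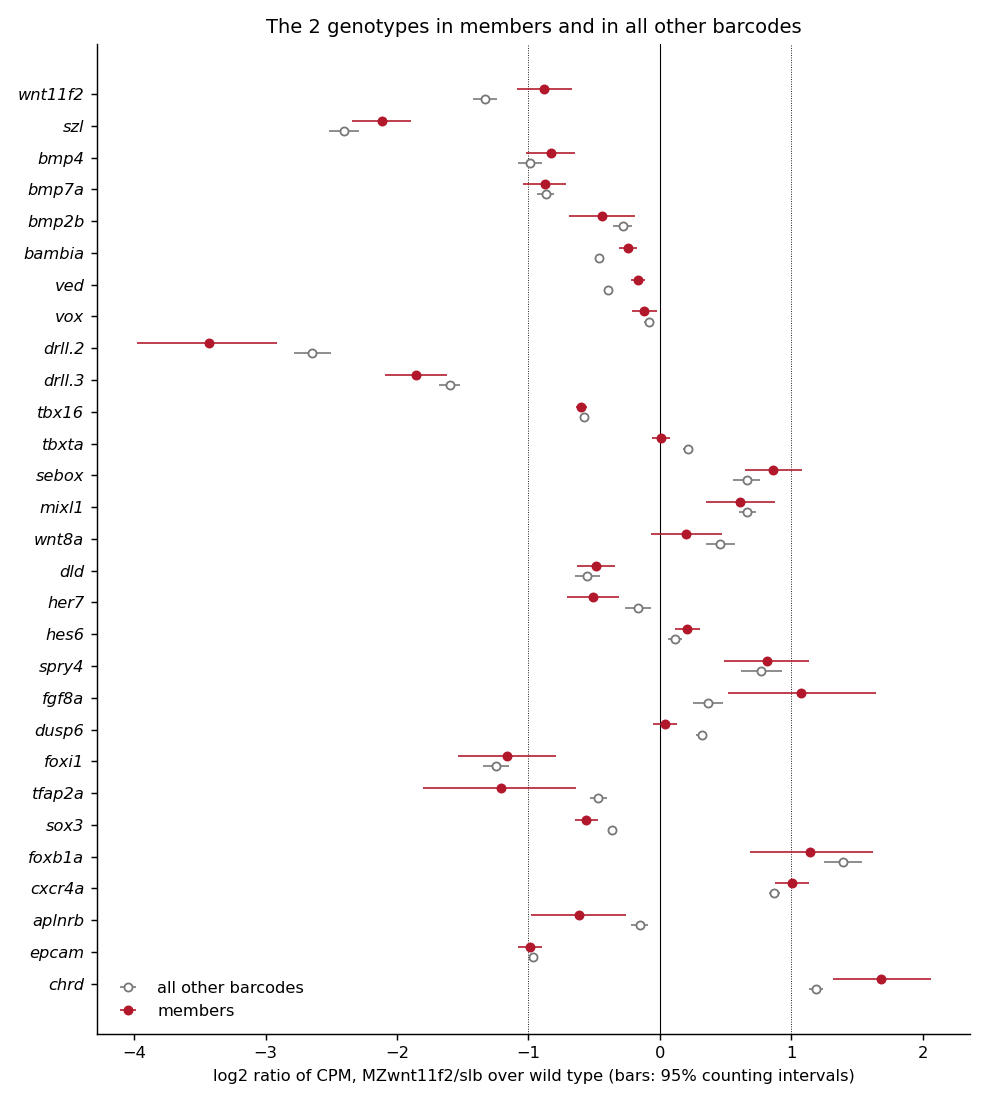
Log2 ratio of CPM, *MZwnt11f2/slb* over wild type (x axis), for 29 genes (y axis) in members (filled red) and in all other barcodes (open grey), with 95% counting intervals and dotted lines at a 2-fold difference. *szl* lies at -2.11 in members and -2.40 in the others and *sebox* at 0.86 and 0.66, on the same side of 0 in both groups.

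A difference of at least 1 between the log2 genotype ratio in members and that in the other barcodes was rare. It was found for 12 genes (0.21%) with the lower ratio in members and for 6 genes (0.105%) with the higher, counting only genes above the floor of 3 UMIs in all 4 groups. Both genes named next were chosen for this difference after the values were seen. *cyp2aa8*, a cytochrome P450 gene, was at -2.40 in members and -0.65 in the others, a difference of -1.75 (-2.12 to -1.38). *bnip4* was at -2.72 and -4.55, a difference of 1.83 (1.06 to 2.60). In members over others *cyp2aa8* stood at 0.00 (wild type) and -1.75 (*MZwnt11f2/slb*), but at 0.61 and 0.17 without enveloping layer barcodes. Much of the *cyp2aa8* difference thus rested on those barcodes. Among other genes named above, *tbxta* differed by -0.20 (-0.28 to -0.13), *ved* by 0.23 (0.17 to 0.29), *wnt11f2* by 0.45 (0.23 to 0.68) and *drll.2* by -0.78 (-1.31 to -0.26). For *bmp4* (-0.05 to 0.36), *tbx16* (-0.07 to 0.03) and *wnt8a* (-0.55 to 0.03) the interval of the difference held 0. *fgf8a*, a margin ligand low in members, differed by 0.71 (0.16 to 1.26). In members over others *fgf8a* stood at -1.50 (wild type) and -0.79 (*MZwnt11f2/slb*), but at -0.13 and 0.03 with no mesoderm limit. The same setting moved *wnt11f2* from 0.64 and 1.09 to 1.50 and 1.50, and *drll.2* from 0.26 and -0.52 to 0.88 and 0.50. For *fgf8a*, *wnt11f2* and *drll.2* the difference was thus smaller under that setting. For *tbxta*, then at 2.54 and 2.30, it was not. These intervals take no account of variation between libraries.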

How the data were processed

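Single-cell RNA sequencing of shield-stage embryos was analysed, 1 library per genotype. The authors deposited raw UMI counts of 27597 genes per cell barcode, not normalized. The file headers and the submitters' processing notes name Cell Ranger 6.1.1 and the build GRCz11, whereas the study's methods name another Cell Ranger version. The annotation release and the treatment of intronic reads are not given in sources used here. All deposited barcodes were kept (37370253 and 40025626 UMIs).

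Members were found by the rule on raw counts. UMIs were summed per group, and log2 ratios of CPM carry exact conditional intervals of 2 Poisson counts, shares exact binomial intervals. Genes of the rule were left out of the counts of called genes. Mitochondrial genes were kept in these counts and left out only of the rankings that chose genes to name. Groups with fewer than 3 UMIs of a gene were set to 3. On simulated counts 95.8% of intervals of unchanged genes held 0 for members over others (10017 genes) and 95.6% between genotypes (5730 genes). The simulated counts were Poisson draws, so this checks the calculation only. Variation between cells or libraries beyond counting error was not simulated.

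The members, the 25 gene lists (368 symbols, 7 of which were not in the gene list) and the comparisons were chosen with earlier results of these data known. Genes named are those of the rule, *wnt11f2*, the 15 highest and 10 lowest against other barcodes, the 10 highest and 10 lowest between genotypes, and list members. The *tbxta* classes, and the genes named for opposite or unequal genotype ratios, were chosen after values were seen. Alternatives were other limits of the rule, thinning, filters on cells, shared barcodes left out, other scalings, and other minimum counts. Added after seeing the data were the comparison without enveloping layer barcodes and members with a *tbxta* UMI. Symbols carried by more than 1 identifier (548 symbols) may split reads. Python 3.11.15, numpy 2.4.6, pandas 2.3.3, scipy 1.17.1 and matplotlib 3.10.9 were used.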

Additional observations from a re-analysis of the deposited data

Results flagged for a closer look

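In 18 of 5725 genes the genotype ratio had opposite signs in members and in the other barcodes, with both intervals away from 0. The values of 3 of them, *id1* of the BMP list and 2 genes whose ratios differed by at least 1, are given here. The difference rests on 1 library per genotype and was not tested across libraries. *ptgdsb.1* was lower in *MZwnt11f2/slb* members (95 and 67 UMIs, log2 ratio -0.60) and higher in the other barcodes (0.94), a difference of -1.54 (-2.01 to -1.08). *id1*, a BMP target, was at -0.09 in members and 0.21 in the others, a difference of -0.31 (-0.37 to -0.24). Median-of-ratios scaling, which shifted genotype ratios in members by 0.07, put *id1* at -0.02 there. The count of 18 genes was not taken under that scaling. *ftr86* was at 0.79 in members, with 112 and 207 UMIs, and at -1.25 in the others, with 11140 and 5024 UMIs, a difference of 2.04 (1.70 to 2.37). In members over others *ftr86* stood at -3.34 (wild type) and -1.30 (*MZwnt11f2/slb*), but at 0.02 and 0.15 without enveloping layer barcodes. *ptgdsb.1* stood at -0.24 and -1.79, but at 0.52 and -0.10 without them. Much of the difference for these 2 genes thus rested on enveloping layer barcodes.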

How the results depend on the processing

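Limits of the rule moved the share of members. With at least 2 UMIs of *eve1* and of *cdx4* it was 3.28% (wild type) and 3.72% (*MZwnt11f2/slb*), with no mesoderm limit 12.4% and 12.3%, after thinning 6.75% and 6.37%, and with a *tbxta* UMI as well 7.05% and 7.23%. The count of genes higher in members, 30, became 54 with no mesoderm limit, 51 with a minimum of 20 UMIs and 69 with 1 UMI, and that of lower genes, 512, became 114 without enveloping layer barcodes. Between genotypes, the 178 higher and 278 lower genes became 99 and 117 with 2 UMIs of each gene, 85 and 105 after thinning, 586 and 1008 with a minimum of 20 UMIs, and 990 and 1717 with 1 UMI. Fewer cells or a lower minimum change which genes could be counted. All other settings kept these counts within 1.5 times.

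Of log2 ratios of members over others called 2-fold lower, those turning positive with no mesoderm limit in both libraries were *aplnrb* (0.89 in wild type, 0.39 in *MZwnt11f2/slb*), *fgf3* (0.68, 0.23), *foxc1a* (0.66, 0.31), *osr1* (1.70, 0.89), *pcdh8* (1.1, 0.67) and *snai1a* (0.67, 0.19), the last just under 2-fold in *MZwnt11f2/slb*, and in wild type *dkk1b* (0.18), *gata5* (0.78) and *lhx1a* (0.76). Of ratios under 2-fold or of genes under 100 UMIs, *mixl1* (1.64, 1.02), *lft1* (1.80, 1.98) and *aldh1a2* (1.86, 1.34) turned positive too. Calls of *fzd7a* (-0.82, -0.81) and *sox32* (-0.59, -0.91) ended, as did those of *lft2* (-0.77), *ripply1* (-0.61) and *fgf8a* (-0.13) in wild type. In *MZwnt11f2/slb* the calls of *dkk1b* (-0.99), *gata5* (-0.44), *lhx1a* (-0.15) and *glula* (-0.66) ended. Without enveloping layer barcodes those turning positive were *ftr86* (0.022, 0.15) and *tll1* (0.51, 1.83), and in *MZwnt11f2/slb* *cyp2aa8* (0.17), *epcam* (0.029) and *krt17* (0.072). Calls of *rspo3* (-0.48, -0.69) and *krt92* (-0.20, -0.40) ended. So did those of *krt17* (-0.03) and *epcam* (-0.09) in wild type, and of *gata3* (-0.24) and *ptgdsb.1* (-0.10) in *MZwnt11f2/slb*. In wild type *bmp4* (0.95) and *sebox* (0.96) came just under 2-fold. In *MZwnt11f2/slb* *dusp6* (0.95), *her7* (0.97), *bambia* (0.98) and *her1* (0.88) did. After thinning, *smad7* in wild type came to 0.80. Of the named calls of members over others, 26 of 49 in wild type and 28 of 52 in *MZwnt11f2/slb* stayed 2-fold under all settings. Of 16 named ratios between genotypes at least 2-fold from 1 on at least 100 UMIs, none changed sign under 10 settings, but only 11 stayed 2-fold. Those that fell under 2-fold were *fgf8a* (0.53 with no mesoderm limit) and, after thinning, *foxb1a* (0.61) and *cxcr4a* (0.85). With 2 UMIs of *eve1* and of *cdx4*, *tfap2a* (-0.56) and *snai2* (-0.92) fell under it too. Median-of-ratios scaling shifted ratios by -0.07 over others and by 0.07 between genotypes. No paired analysis was possible because each genotype has 1 library. Genes with few UMIs in members have wide intervals.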
